A study of Mus musculus with 17 samples.

Results

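Perigonadal white adipose tissue (pWAT), the fat depot beside the gonads, of 10 female mice was profiled by RNA-seq, and these 10 libraries are described here as a high and a low lipogenic side. The sides were chosen by a measured value: a library went to the high side where its deposited normalized count of *Fasn*, which encodes fatty acid synthase, was at least 250000, and to the low side otherwise. Of the 17 libraries of the study, all 10 female libraries fell under the rule, 5 on each side. The high side held 3 U9-KO and 2 wild-type (WT) females, and the low side held 2 U9-KO and 3 WT females, so the split ran across the genotypes. The remaining 7 libraries came from males (4 U9-KO and 3 WT), took no part in the split, and are used below as separate samples. U9-KO mice lack every exon of *U90926*, a long noncoding RNA gene, in all tissues, whereas WT mice were their littermates from heterozygous crosses. Mice of both genotypes and sexes were C57BL/6J, formed no treatment groups, ate standard chow and were 16 weeks old at collection. The study's phenotyping pipeline for such mice included overnight food withdrawal, blood sampling and an intraperitoneal glucose test. Which of these the sequenced animals underwent, and their feeding state at collection, is not stated. Each library is 1 animal, and high and low are states read from the data, not treatments. Before the values are given, 2 females stand apart: the 6 ovary markers summed to a normalized count of 138124 in U9-KO female 1 (high side) and 122383 in WT female 4 (low side), against 4020 to 37764 in the other females. In whole tissue, fewer cells of a type and less RNA per cell cannot be told apart.

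In de novo lipogenesis, a cell builds fatty acids from carbohydrate carbon. Citrate leaves the mitochondrion through the carrier encoded by *Slc25a1*, ATP citrate lyase (*Acly*) cleaves it to acetyl-CoA, acetyl-CoA carboxylase (*Acaca*) makes malonyl-CoA, and fatty acid synthase joins these units to palmitate, which *Elovl6* lengthens and *Scd1* desaturates. The pathway is known to respond to feeding and insulin through the transcription factors SREBP1 (*Srebf1*) and ChREBP (*Mlxipl*), and adipose tissue and liver are its main sites. Because these values chose or share the contrast that chose the sides, every difference between high and low females is given as a description, with no test.

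*Fasn* (chromosome 11, 120805846 to 120824547, minus strand, GRCm38) had a normalized count of 423472 in WT female 1, 398953 in WT female 2, 353643 in U9-KO female 1, 429828 in U9-KO female 2 and 931443 in U9-KO female 3 on the high side. On the low side it had 18029 in WT female 3, 38582 in WT female 4, 112571 in WT female 5, 29690 in U9-KO female 4 and 196207 in U9-KO female 5. The libraries nearest the threshold were U9-KO female 1 just inside at 353643 and U9-KO female 5 just outside at 196207. The mean was 507468 ± 238891 (SD, n = 5) on the high side and 79016 ± 75245 (SD, n = 5) on the low side, and the highest and lowest libraries were 51.7-fold apart. U9-KO female 3 stood well above the other 4 high libraries. In the males *Fasn* ranged from 47950 to 308595, with both lowest values in WT males.

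The 100 bases upstream of the transcription start are shown for *Fasn*, for *Acly*, the marker whose start is the same in RefSeq and GENCODE, and for *Slc25a1*, the citrate carrier with the same property. They are read 5′ to 3′ on the gene's strand (minus for all), from RefSeq promoters of GRCm38.p6, and capitals mark matches to CCAAT on either strand, the core of the site bound by the factor NF-Y.
Fasn, chr11:120824548-120824647: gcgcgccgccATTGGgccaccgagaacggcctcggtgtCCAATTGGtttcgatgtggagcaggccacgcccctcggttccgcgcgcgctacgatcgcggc
Acly, chr11:100528001-100528100: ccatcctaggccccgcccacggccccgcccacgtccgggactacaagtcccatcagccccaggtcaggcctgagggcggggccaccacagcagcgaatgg
Slc25a1, chr16:17928220-17928319: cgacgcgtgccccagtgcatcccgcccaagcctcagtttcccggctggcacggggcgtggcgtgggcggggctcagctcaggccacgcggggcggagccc
The *Fasn* window held 3 matches, which began 90, 62 and 59 bases upstream of the start, and the last 2 overlap each other. The windows of *Acly* and *Slc25a1* held none, although *Slc25a1* had a match farther out, 125 to 121 bases upstream. Over 300 bases (250 before to 50 after the start), CCAAT was found on either strand in 60% of 15 promoters of the lipogenesis list described below (14 of 17 symbols matched). It was found in 77.8% of 18 promoters of the cholesterol synthesis list (15 of 23 symbols matched). The genes separated and higher had it in 44.6% of 112 promoters (87 of 139 symbols matched). Those separated and lower had it in a similar 43.5% of 46 promoters (37 of 64 symbols matched). The share was 37.3% of the 15762 promoters of the genes described here (37.4% of all 32851 promoters). The E-box CACGTG, a palindrome that reads the same on both strands, was found in 13.3%, 16.7%, 8.04%, 6.52% and 9.19% of the same promoters, in that order (7.15% of all). These are letter matches in short windows and no binding was measured.

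The difference between the sides was taken per gene as the mean log2(normalized count + 1) of the high libraries minus that of the low ones, over 17791 genes with a mean of at least 10 in the females, *Fasn* left out. A gene was called separated where all 5 high libraries lay above, or all 5 below, the 5 low ones and the difference was at least 1 on this log2 scale. By this rule 139 genes (0.781% of 17791) were separated and higher on the high side, and 64 (0.36%) were separated and lower. With no minimum difference, 829 genes (4.66%) lay wholly above and 489 (2.75%) wholly below, and the median difference of all genes was −0.012. Over all 17791 genes, 8554 had a difference above 0 and 9235 one below 0. Of the 139 higher genes, U9-KO female 3 was the highest high library in 126, and U9-KO female 5 was the highest low library in 120. The counts moved with single libraries, and leaving a library out makes non-overlap easier to meet. The higher set held 111 genes without U9-KO female 3, 209 without U9-KO female 1 and 260 without U9-KO female 5. The lower set held 50 without U9-KO female 3 and 203 without U9-KO female 1, and it lay between 109 and 175 without U9-KO female 2, U9-KO female 5, WT female 1 or WT female 4.

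The lipogenesis genes lay higher on the high side as a group. Of the 16 members of the de novo lipogenesis list besides *Fasn*, 16 had a difference above 0, 12 lay wholly above and 11 were separated, with a median difference of 1.81 and a range of 0.25 to 3.50. With the score of oviduct and uterus epithelium markers as a covariate, chosen after the data were seen, the median was 1.10 and the higher set held 86 genes, 63 of them among the 139. *Acly* (chromosome 11, 100476353 to 100528000) had 71244 and 71647 in WT females 1 and 2 and 80469, 80755 and 238318 in U9-KO females 1, 2 and 3. On the low side it had 4196, 6514 and 12899 in WT females 3, 4 and 5 and 4578 and 45510 in U9-KO females 4 and 5. The sides did not overlap, and the ratio of the means was 7.36 (log2 difference 3.34).

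*Elovl6* (chromosome 3, 129532355 to 129638495), the elongase that acts on palmitate, had 15997 and 10963 in the WT and 20976, 25681 and 71337 in the U9-KO females of the high side. It had 581, 2099 and 3856 in the WT and 942 and 8260 in the U9-KO females of the low side. The ratio of the means was 9.21 and the log2 difference 3.50, the largest of the lipogenesis list. *Acss2*, which makes acetyl-CoA from acetate, had 11568 and 9652 in the WT and 12631, 12906 and 37999 in the U9-KO females of the high side. On the low side it had 993, 1291 and 2945 in the WT and 1238 and 5459 in the U9-KO females. The log2 difference was 2.94. *Acss2os*, annotated antisense to *Acss2*, was also separated, at 17 to 45 on the high and 1 to 15 on the low side.

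**Figure D1:**
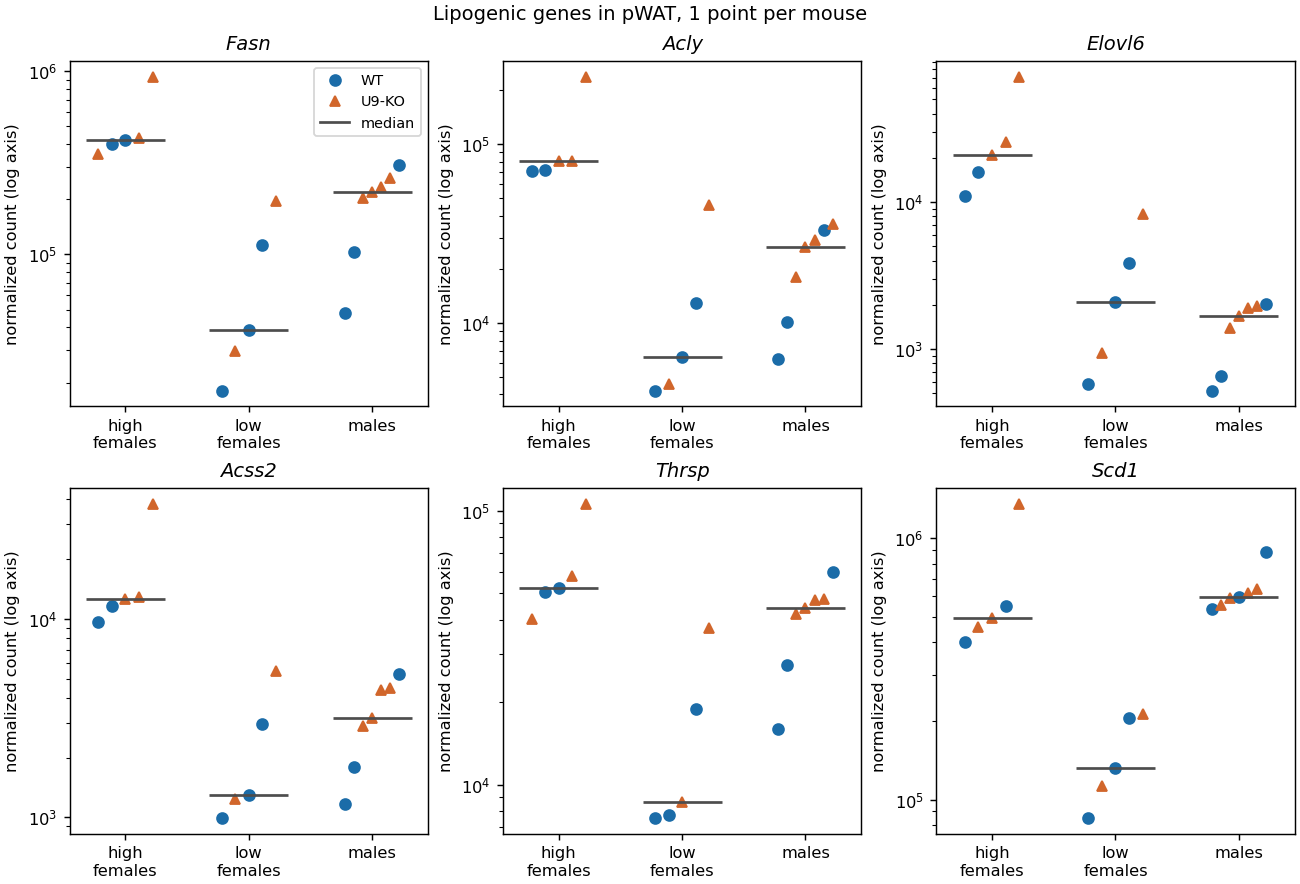
Normalized counts (log axis) of 6 lipogenic genes in the 5 high females, the 5 low females and the 7 males, 1 point per mouse with WT as circles, U9-KO as triangles and the median as a bar. In each panel all high females lie above all low females, and in males *Scd1* was highest (883534) in the library with the lowest *Fasn*.

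The carrier and carboxylation steps lay in the same order. *Slc25a1* ranged from 11376 to 34153 on the high side and from 2964 to 9379 on the low side, a log2 difference of 1.90. *Acaca* ranged from 60222 to 161606 against 11773 to 40377, a log2 difference of 2.14. *Acacb*, whose product acts at the mitochondrion and restrains fatty acid oxidation, overlapped between the sides, with a log2 difference of 1.65 within the U9-KO and 0.20 within the WT females. *Mid1ip1* and *Thrsp*, whose products act on acetyl-CoA carboxylase and fatty acid synthesis, were both separated, with log2 differences of 1.15 and 2.16. *Thrsp* had 40328 to 106108 on the high and 7567 to 37415 on the low side, so U9-KO female 5 came close to U9-KO female 1. *Aacs*, which makes acetoacetyl-CoA from ketone bodies, differed by 1.67.

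Among the desaturases, *Scd1* (chromosome 19, 44394455 to 44407879) had 552069 and 402277 in the WT and 456277, 495714 and 1353006 in the U9-KO females of the high side. It had 85092, 131556 and 205500 in the WT and 112234 and 211873 in the U9-KO females of the low side. The sides did not overlap, and the log2 difference was 2.06. *Scd2* also was separated, with 12036 to 30483 against 3018 to 11138. The desaturases and the elongase of polyunsaturated fatty acids differed by less: *Fads1* by 0.42 without overlap, and *Fads2* and *Elovl5* by 0.33 and 0.25 with overlap. *Pnpla3*, a lipase-family gene known to be induced with lipogenesis, differed by 1.41 but overlapped, since U9-KO female 5 (9963) lay above U9-KO female 1 (7555). Together with *Fasn*, the list took 4.82% to 11.03% of all normalized counts of the high libraries and 0.732% to 2.79% of the low ones. *Fasn*, which chose the sides, alone took 1.65% to 3.25% and 0.084% to 0.894%, so the rule fixes part of that gap. In males the list with *Fasn* took 3.51% to 4.64%, with 4.57% in WT male 2, the male lowest in *Fasn*.

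The pentose phosphate pathway and malic enzyme make NADPH, the reducing power of fatty acid synthesis. Of the 11 members of the pentose phosphate and NADPH list, 9 had a difference above 0, 6 lay wholly above and 3 were separated, and the median was 0.66. *Tkt*, the transketolase of the pentose phosphate pathway, had 56370 and 51091 in the WT and 47484, 64657 and 117488 in the U9-KO females of the high side. It had 6416, 9090 and 20065 in the WT and 7489 and 36565 in the U9-KO females of the low side, a log2 difference of 2.33. Malic enzyme (*Me1*, also a member of the lipogenesis list) differed by 2.08, and 6-phosphogluconate dehydrogenase (*Pgd*) by 1.72. *G6pdx*, which encodes the first enzyme of the pathway, overlapped by little (6042 to 13316 against 2898 to 6050).

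Genes that bring pyruvate into the mitochondrion were higher too. All 14 members of the pyruvate entry and citrate cycle list had a difference above 0, 9 lay wholly above and 6 were separated, with a median of 0.85. The separated members were the carrier subunits *Mpc1* (1.68) and *Mpc2* (1.21), the pyruvate dehydrogenase subunits *Pdhb* (1.61), *Pdha1* (1.11) and *Dlat* (1.04), and pyruvate carboxylase *Pcx* (1.278). *Pdhb* had 8901 and 8914 in the WT and 7745, 9152 and 18441 in the U9-KO females of the high side, against 2232, 2670 and 3853 in the WT and 2571 and 6595 in the U9-KO females of the low side. *Mpc1* is uncertain as a single gene because the near-identical copy *Mpc1-ps* shares its sequence, and that copy differed by 1.61. The enzymes of the cycle itself differed by less, for example citrate synthase *Cs* by 0.81 and *Sdha* by 0.50.

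In the glucose uptake and glycolysis list, 13 of 17 genes had a difference above 0, 9 lay wholly above and 3 were separated. The median was 0.465. The 4 genes below 0 were *Ldhb* (−0.48), *Hk1* (−0.41), *Pfkm* (−0.25) and the transporter gene *Slc2a1* (−0.02), all with overlap. *Hk2*, an insulin-responsive hexokinase, had 2435 to 4877 on the high and 951 to 2392 on the low side, a log2 difference of 1.49. *Aldoa* differed by 1.11 and *Ldha* by 1.03. Of the 10 named genes with the largest differences, *Ppp1r3b* and *Gys2* act on glycogen. *Ppp1r3b*, which targets a phosphatase to glycogen and is a member of the insulin signalling list, had 1016 and 1542 in the WT and 1317, 2639 and 3532 in the U9-KO females of the high side. It had 192, 107 and 262 in the WT and 186 and 491 in the U9-KO females of the low side, a log2 difference of 3.04. The glycogen synthase gene *Gys2* had 352 to 796 against 29 to 228, a log2 difference of 2.95, and U9-KO female 5 (228) was far above the other 4 low libraries (29 to 52). The branching enzyme gene *Gbe1* (1.80) and the phosphorylase gene *Pygl* (1.35), both looked up after their values were seen, were separated as well. *Ppp1r3c*, a glycogen-targeting relative of *Ppp1r3b* in the insulin signalling list, differed by 0.62 and overlapped (447 to 942 against 318 to 592).

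**Figure D2:**
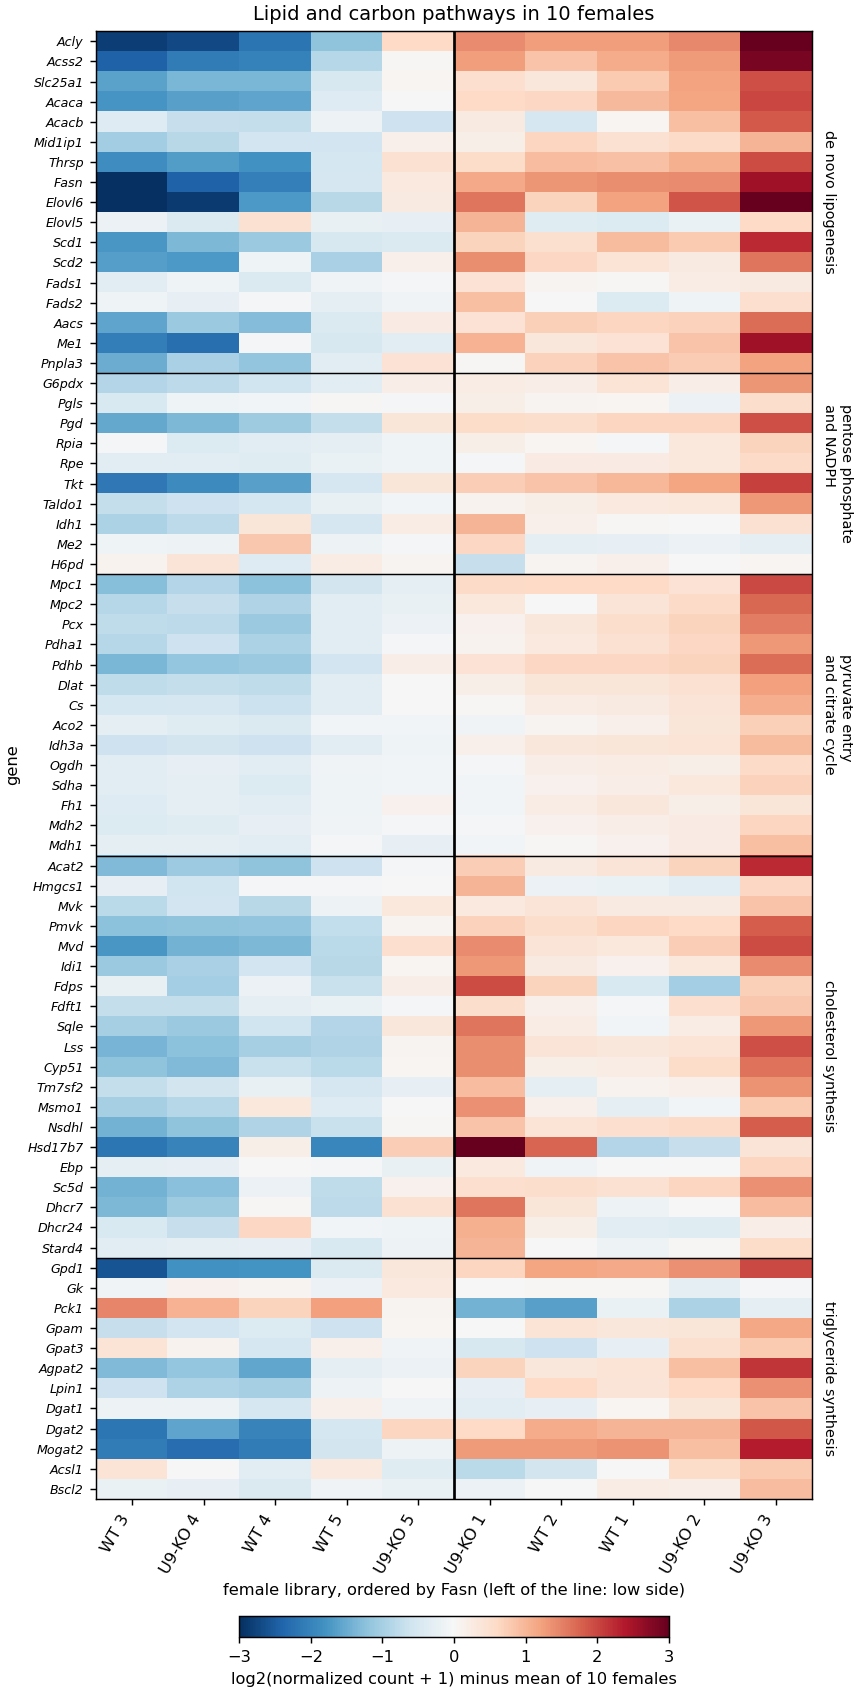
Heat map of genes of 5 lists (rows, some members not shown) in the 10 female libraries (columns, ordered by *Fasn* from left to right, with a line between the sides), as log2(normalized count + 1) minus the gene's mean over the 10 females. U9-KO 3 is the reddest column at the right, U9-KO 5 is near the mean in most rows, and *Pck1* (log2 difference −1.79) is bluest on the high side within the triglyceride synthesis list.

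Triglyceride synthesis divided by gene. Of 12 members 3 were separated and higher, 1 was separated and lower, and the median was 0.69. *Gpd1*, which makes glycerol 3-phosphate from a glycolytic intermediate, had 17164 and 17632 in the WT and 12144, 20185 and 30735 in the U9-KO females of the high side. It had 1292, 2267 and 5772 in the WT and 2215 and 9897 in the U9-KO females of the low side, a log2 difference of 2.52. *Mogat2*, an acyltransferase, differed by 2.87 and *Agpat2* by 1.79. *Dgat2*, which encodes an enzyme of the last step, differed by 2.25 but overlapped, since U9-KO female 5 (39368) lay above U9-KO female 1 (38143).

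*Pck1* (chromosome 2, 173153048 to 173159273), the gene for the cytosolic phosphoenolpyruvate carboxykinase that feeds glycerol synthesis from pyruvate in fasted fat, went the other way. It had 14694 and 5427 in the WT and 6312, 8742 and 13931 in the U9-KO females of the high side. On the low side it had 46591, 26705 and 39502 in the WT and 34824 and 17902 in the U9-KO females. The sides did not overlap and the log2 difference was −1.79. *Gk*, the gene of glycerol kinase, which makes glycerol 3-phosphate from glycerol, differed by −0.09 and overlapped.

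Cholesterol synthesis genes were on the higher side throughout. All 23 members had a difference above 0, 10 lay wholly above and 8 were separated, and the median was 1.09. Among the separated members were *Lss* (1.78), *Acat2* (1.71), *Pmvk* (1.71), *Nsdhl* (1.67), *Cyp51* (1.58), *Sc5d* (1.40) and *Idi1* (1.38). *Lss*, which encodes the enzyme that closes the sterol ring, had 1375 and 1413 in the WT and 2842, 1443 and 4160 in the U9-KO females of the high side. It had 410, 543 and 585 in the WT and 466 and 1148 in the U9-KO females of the low side, so U9-KO female 1 was second to U9-KO female 3 here. *Hsd17b7* was highest in U9-KO female 1, the high library with the most ovary transcripts, at 16511 against at most 1109 on the low side. Its sides overlapped, with 362 in the lowest high library.

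Of 13 lipogenic transcription factors and their regulators, only *Insig1*, a sterol-regulated anchor of SREBP and itself an SREBP target, was separated (1.82), and the list median was 0.16. *Insig1* had 7584 and 6021 in the WT and 7492, 11054 and 17020 in the U9-KO females of the high side, against 1930, 2113 and 3641 in the WT and 2079 and 3849 in the U9-KO females of the low side. *Srebf1* had 13255 and 14156 in the WT and 8785, 13941 and 23376 in the U9-KO females of the high side. It had 3242, 3485 and 8590 in the WT and 5399 and 8793 in the U9-KO females of the low side, so the sides overlapped by U9-KO female 1 alone (8785 against 8793). The log2 difference was 1.37. *Mlxipl* differed by 1.35 and overlapped in the same manner (4114 in U9-KO female 1, 6824 in U9-KO female 5), and its partner *Mlx* differed by 0.85 without overlap. *Srebf2*, the family member linked to cholesterol synthesis, differed by 0.16.

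The other fat cell lists are given beside the 0.781% of all genes that were separated and higher. In the lipolysis and lipid droplet list (15 genes, median 0.26) only *Plin2*, a droplet coat gene, was separated (1.04). In the fatty acid uptake list (10 genes, median 0.24) only *Fabp5*, a fatty acid carrier, was separated (1.72), while *Fabp4* differed by 0.10 and *Lpl* by 0.79 with overlap. None of the 15 described fatty acid oxidation genes was separated (median 0.24), and *Cpt1a*, which admits fatty acids to the mitochondrion, was −0.88 with overlap. Besides *Ppp1r3b*, none of the 16 insulin signalling genes was separated (median 0.21), and the insulin receptor substrate gene *Irs2* was −0.81 with overlap.

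No adipokine was separated (12 genes, median 0.33). Leptin (*Lep*) had 14039 and 17220 in the WT and 5362, 10245 and 9727 in the U9-KO females of the high side. It had 1160, 1351 and 4641 in the WT and 3605 and 9229 in the U9-KO females of the low side. The log2 difference was 3.00 within the WT and 0.49 within the U9-KO females, and that contrast was not tested. *Adipoq*, the adiponectin gene, differed by 0.26 and *Pparg*, the master regulator of adipogenesis, by 0.91, both with overlap. No gene was separated among the adipogenic transcription factors (11 genes, median 0.39), the 8 described thermogenic genes (0.78), the circadian clock (19 genes, 0.25) or the 12 described glucocorticoid and fasting targets (−0.30). In that last list *Ddit4* lay wholly below, at 610 to 799 on the high and 972 to 1336 on the low side. So did *Per1*, also in the clock list, at 874 to 1217 against 1220 to 1430. The clock gene *Bhlhe41* lay wholly above (162 to 340 against 96 to 148), and the adipokine gene *Agt* wholly below (2474 to 4851 against 4886 to 6716). The clock output gene *Dbp* differed by −0.14.

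**Figure D3:**
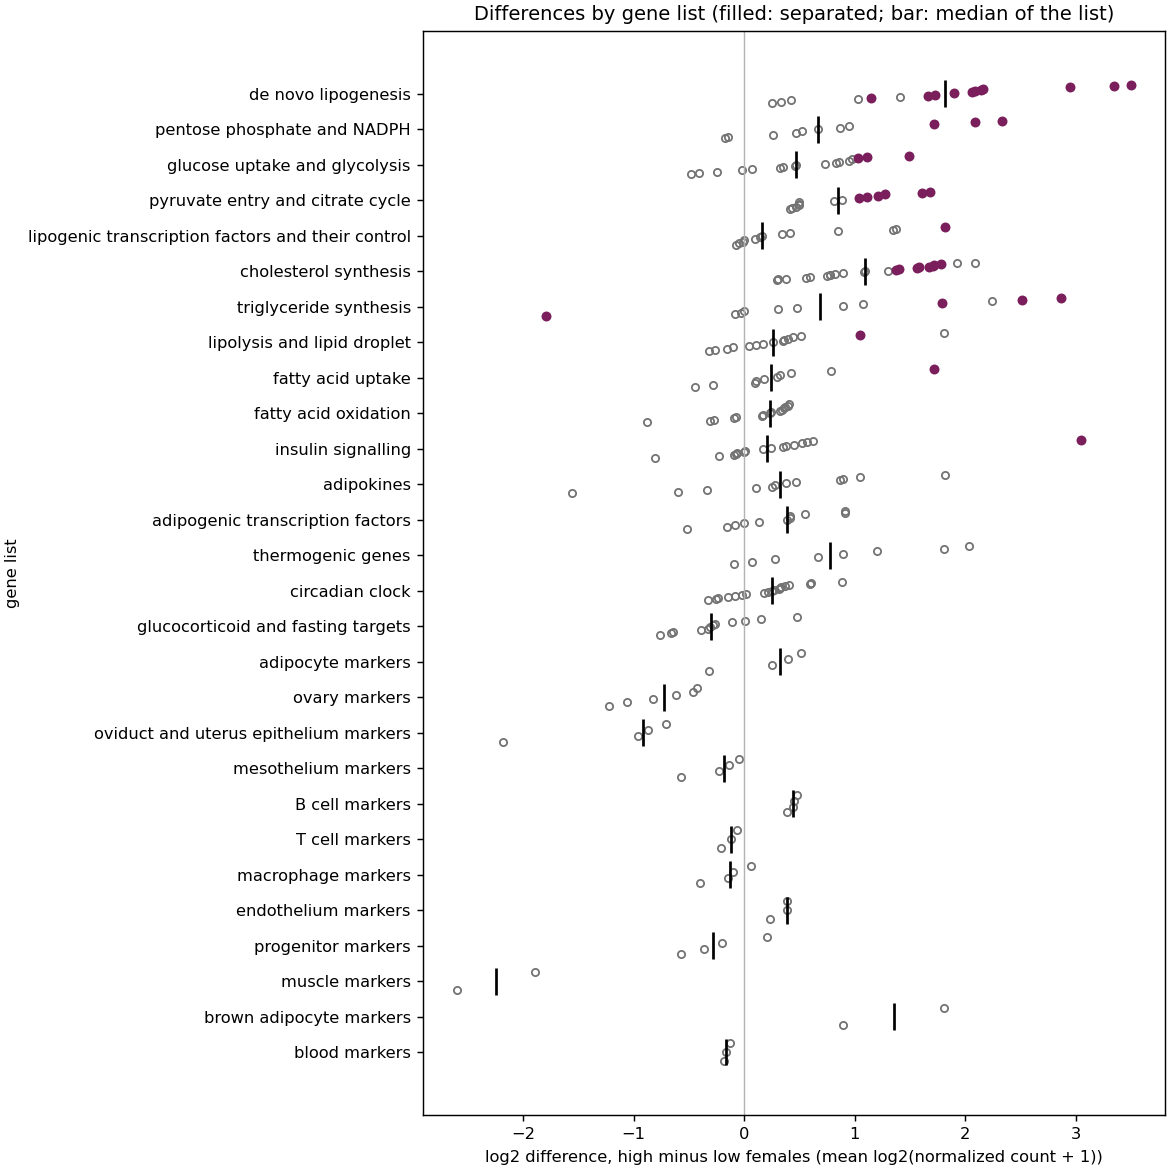
Difference between high and low females (x axis, log2 scale) for each member of the 28 gene lists (y axis), with separated genes filled and the list median as a bar. The lipogenesis list has the largest median of the metabolic lists (1.81), and *Pck1* is the filled point below 0.

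The separated genes outside the lists with the largest differences included *Hephl1*, a ferroxidase-family gene (3.55, 200 to 581 against 6 to 117), *Marc1*, the gene of a mitochondrial amidoxime-reducing enzyme (2.77, 516 to 1451 against 51 to 398), and *Adcy10*, the soluble adenylyl cyclase gene (2.704, 89 to 335 against 8 to 71). Chosen after their values were seen, the mitochondrial dicarboxylate carrier gene *Slc25a10* (2.17), the alanine aminotransferase gene *Gpt* (1.61) and the immunoglobulin heavy chain gene *Ighm* (2.09, 5812 to 18193 against 1098 to 5498) were separated too. None of the 4 B cell markers was separated.

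Of the 64 genes lower on the high side, *Pck1* was the only member of any list. *Tnnt2*, cardiac-type troponin T, had 167 and 110 in the WT and 97, 65 and 33 in the U9-KO females of the high side, against 662, 293 and 474 in the WT and 541 and 356 in the U9-KO females of the low side (log2 difference −2.42). *Ptn*, which encodes the growth factor pleiotrophin, had 313 and 225 in the WT and 283, 326 and 120 in the U9-KO females of the high side. It had 2749, 793 and 1222 in the WT and 2051 and 589 in the U9-KO females of the low side (−2.40). The sides did not overlap for either gene, and U9-KO female 3 was the lowest library for both.

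*Pappa2*, a protease that cleaves IGF-binding proteins, had 43 to 84 on the high and 145 to 299 on the low side (−2.06). *Tcf23*, a basic helix-loop-helix factor, had 59 to 502 against 667 to 1639 (−1.96). *Peg3*, an imprinted zinc-finger gene, had 1807 and 1251 in the WT and 779, 1737 and 1078 in the U9-KO females of the high side, against 7185, 3212 and 3712 in the WT and 4498 and 1818 in the U9-KO females of the low side (−1.55). Its gap was narrow, since WT female 1 (1807) lay next to U9-KO female 5 (1818). The other named genes were *Smim5* (−1.81), the retinol-transporter gene *Stra6* (−1.59), *Olfr1033* (−1.44) and the metalloproteinase gene *Mmp17* (−1.42). Matrix genes chosen after their values were seen were *Emilin1* (−1.14), *Col1a1* (−1.01) and *Mfap2* (−1.01).

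**Figure D4:**
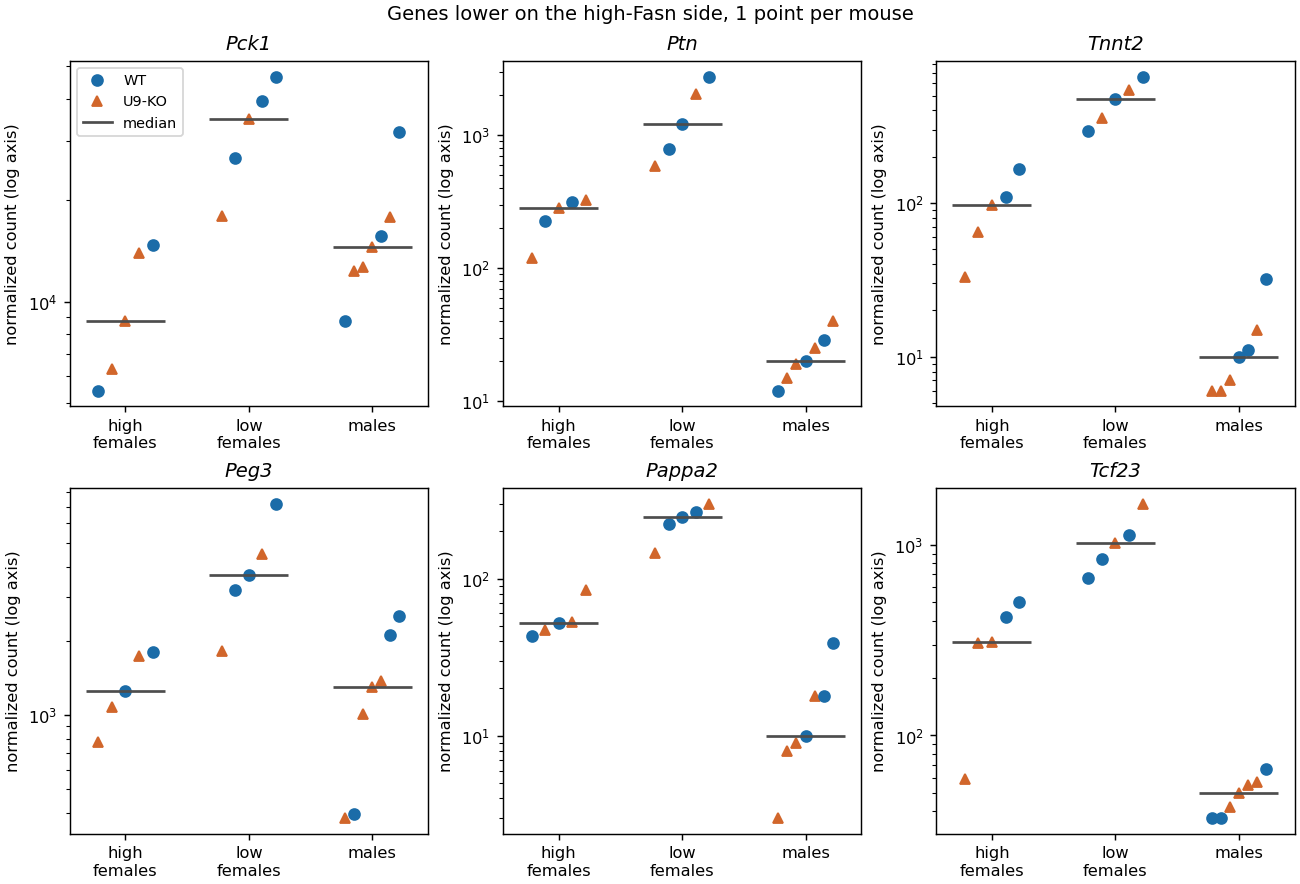
Normalized counts (log axis) of 6 genes that were separated and lower on the high side, 1 point per mouse for the 5 high females, the 5 low females and the 7 males, with WT as circles, U9-KO as triangles and the median as a bar. *Ptn*, *Tnnt2*, *Pappa2* and *Tcf23* had at most 40, 32, 39 and 67 in the males, far below the low females, whereas *Pck1* and *Peg3* in males overlapped both sides of the females.

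Transcripts of neighbouring organs varied between these libraries. All 4 oviduct and uterus epithelium markers were lower on the high side (median −0.92), with a summed count of 669 to 1096 on the high and 1005 to 9092 on the low side. With that marker score as the covariate named above, 49 genes were separated and lower, 25 of them among the 64. All 6 ovary markers were lower as well (median −0.72), but their sums overlapped widely, at 4020 to 138124 against 8351 to 122383. Without the 2 females with the most ovary transcripts, U9-KO female 1 and WT female 4, a choice made after the data were seen, 194 genes were higher and 226 lower, and these held 133 of the 139 and 61 of the 64. That overlap was nearly fixed in advance, because genes without overlap stay so when libraries are left out. Fewer libraries also make non-overlap easier to meet. The part of either marker list in the differences was not tested.

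The labelled tissue was present throughout: the 4 adipocyte markers *Adipoq*, *Plin1*, *Cidec* and *Lipe* summed to 81763 to 189411 on the high and 85905 to 161036 on the low side. No gene was separated among the markers of mesothelium (list median −0.18), B cells (0.45), T cells (−0.12), macrophages (−0.13), endothelium (0.39), progenitors (−0.29), muscle (−2.24 over 2 described genes), brown adipocytes (1.35 over 2 described genes) and blood (−0.17). The macrophage marker *Cd68* lay wholly below, at 292 to 423 on the high and 439 to 577 on the low side. *Ucp1* had at most 7 and *Myh4* at most 1 in the females. The muscle markers summed to 23 to 233 on the high and 191 to 554 on the low side, and the brown adipocyte markers to 121 to 830 and 95 to 166. Their part in the differences was not tested.

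The states were not the labelled groups. By limma, 0 of 24825 genes (0%) differed between U9-KO and WT females at an adjusted p under 0.05. With DESeq2, a count model, the study itself reported a few such genes in females at the same cutoff. By limma, 309 genes were higher and 244 lower in U9-KO females at an unadjusted p under 0.05. Together these are fewer than the share of 0.05 of all genes that this threshold would pass with no effect. *Fasn* itself was 1.19 ± 1.04 (SE) higher on the log2 scale in U9-KO females, with a limma adjusted p of 1. The difference between the sides was present within each genotype, at 3.26 in WT and 2.77 in U9-KO females for *Fasn*, and the split fixes that direction. *U90926* was at a count of 0 in 9 of the 10 females and at 1 in WT female 3, so at this level it does not check the genotype labels.

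The 7 males had no part in the split, so the same question was tested there as the slope of each gene on *Fasn* (limma, log2 change per doubling of *Fasn*). *Fasn* had 308595, 47950 and 102942 in WT males 1, 2 and 3 and 203465, 219208, 233541 and 261989 in U9-KO males 1 to 4. Over 21929 genes, 665 (3.03%) rose and 624 (2.85%) fell with *Fasn* at an adjusted p under 0.05. Of the 138 tested genes that were separated and higher in females, 124 had a slope above 0, 68 (49.3%) rose and 1 fell, and the median slope was 0.32 against −0.005 over all genes. Of the 60 tested genes that were lower in females, 39 had a slope below 0, 2 (3.33%, against the 2.85% of all genes) fell and 0 rose, and the median slope was −0.11. Over all 21929 genes, 10684 slopes were above 0 and 11245 below 0.

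This relation rested on few males. Without WT male 2, 9 genes rose and 11 fell in all, and 6 of the 138 rose. Still, 129 of the 138 slopes were above 0, against 10611 of 21410 over all genes. Without WT males 2 and 3, the libraries farthest from the median of *Fasn*, 1 gene rose and 4 fell in all. In that setting 95 of the 138 slopes were above 0, against 10392 of 20902 over all genes. With no mean-variance trend in limma, no gene passed (smallest adjusted p 0.0797, with 1816 rising and 1924 falling at an unadjusted p under 0.05). Both lowest males were WT, and with genotype as a covariate 453 genes rose, 424 fell and 52 of the 138 rose. Cell type markers moved with *Fasn* in the same males: 3 of 4 macrophage markers fell (list median slope −0.29) and 1 of 4 B cell markers fell (−0.48), as did 1 of 3 endothelium and 1 of 4 progenitor markers, while both tested brown adipocyte markers rose (0.90). The macrophage markers summed to 15232 in WT male 2 against 7148 to 10427 in the other males, and the B cell markers to 730 against 214 to 388. Their part in the male slopes was not tested.

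**Figure D5:**
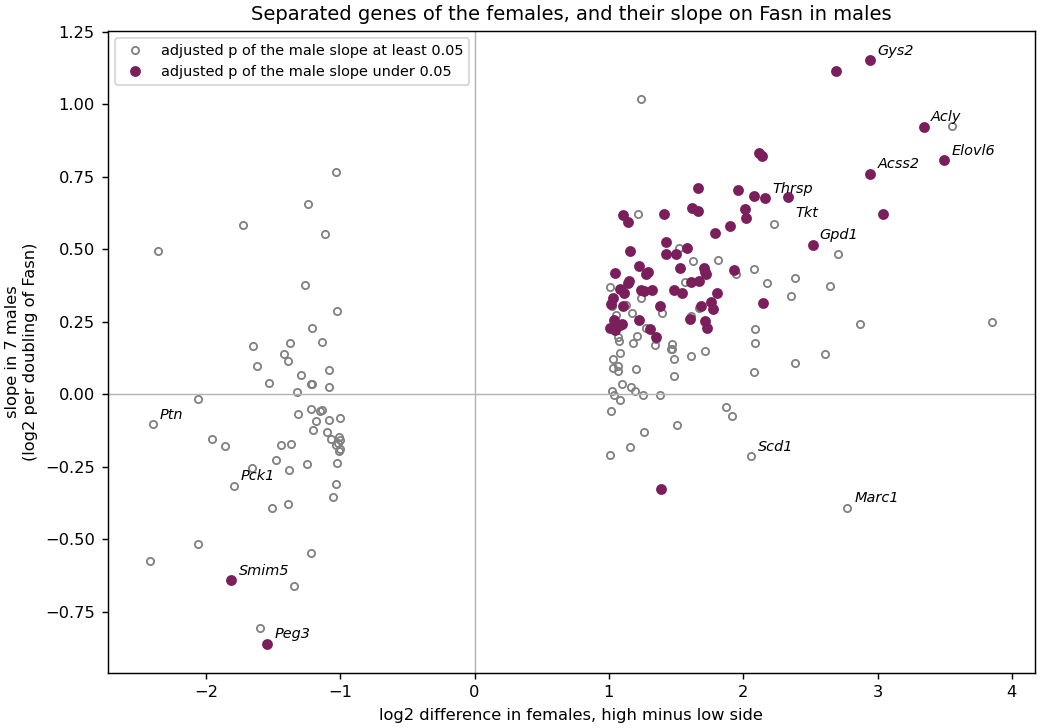
Each separated gene of the females, with its difference between high and low females (x axis, log2 scale) against its slope in the 7 males (y axis, log2 change per doubling of *Fasn*), filled where the adjusted p of the slope was under 0.05 (limma). Of 138 genes on the right 124 lie above 0, and *Scd1* and *Marc1* lie below it.

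By list, 13 of the 16 lipogenesis genes rose with *Fasn* in males (median slope 0.61), as did 11 of 14 of the pyruvate and citrate list (0.24), 10 of 23 of the cholesterol list (0.27), 5 of 11 of the pentose phosphate list (0.24) and 5 of 12 of the triglyceride list (0.24). Without WT male 2 these counts were 3, 0, 0, 2 and 0. Without WT males 2 and 3 none of them rose, 11 of the 16 lipogenesis slopes were above 0 (median 0.34), and the cholesterol median turned to −0.35. Of the fatty acid oxidation list, in which no gene was separated in females, 8 of 16 rose and 1 fell in males.

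*Acly* had a male slope of 0.92 ± 0.12 (SE, limma adjusted p = 0.00248), with 33232, 6286 and 10164 in WT males 1, 2 and 3 and 18160 to 35945 in the U9-KO males, and its slope was −0.04 without WT males 2 and 3. *Elovl6* had a slope of 0.81 ± 0.09 (limma adjusted p = 0.000826), *Acss2* 0.76 ± 0.10 (limma adjusted p = 0.00218) and *Thrsp* 0.68 ± 0.05 (limma adjusted p = 0.000142). *Gys2* had the steepest slope of the genes named among the largest differences, 1.15 ± 0.14 (limma adjusted p = 0.00149). *Srebf1* rose at 0.48 ± 0.05 (limma adjusted p = 0.000961) and *Gpd1* at 0.52 ± 0.04 (limma adjusted p = 0.000276). All of these are steps or regulators of the lipogenic and glycerol pathways or of glycogen synthesis.

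Some genes of the females did not pass in males. *Scd1* had 536320, 883534 and 597501 in WT males 1, 2 and 3 and 555907 to 639963 in the U9-KO males, with a slope of −0.21 ± 0.10 (limma adjusted p = 0.265). The male with the lowest *Fasn* thus had the highest *Scd1*. *Marc1* had a slope of −0.39 ± 0.18 (limma adjusted p = 0.242), and *Lep*, which ranged from 20328 to 37426, one of −0.16 ± 0.10 (limma adjusted p = 0.439). *Pck1* had a slope of −0.32 ± 0.16 (limma adjusted p = 0.295), with 31928 in WT male 3 and 8776 in WT male 1. Of the named lower genes, *Peg3* (−0.86 ± 0.22, limma adjusted p = 0.0417) and *Smim5* (−0.64 ± 0.13, limma adjusted p = 0.0181) fell with *Fasn* in males.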

How the data were processed

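RNA-seq of pWAT came from 10 female and 7 male mice. The deposited values were normalized counts that the authors rounded to whole numbers (a score here, not raw counts). Per the labels and the study's methods, reads were trimmed, aligned to GRCm38 with STAR 2.7.3a, counted per gene on a directional library and scaled with DESeq2 1.28.1 over the libraries. Depth before scaling is therefore unknown, and no count model was used. Summed normalized counts were 20243688 to 28620744 in females and 22024872 to 23916425 in males, and 5 libraries a side limit the precision. Each file held 55401 gene identifiers, of which 55141 took a symbol from GENCODE M21. The column headers of 2 male files carry another replicate number than their labels, and the labels were used.

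The sides were set at a *Fasn* count of 250000. Differences between them are means of log2(value + 1) over genes with a mean of at least 10. In males the slope on log2 *Fasn* (total of at least 10) and in females U9-KO against WT were fitted with limma 3.58.1 (lmFit, eBayes with trend, R 4.3.3) with Benjamini-Hochberg adjustment, tested first on simulated data. A fold on this scale understates the change of low genes. P-values measure the spread between single animals. The members, lists and tests were chosen with earlier results of these data known. Named genes were *Fasn*, *Acly* and *Elovl6*, the lipogenesis list, the 10 separated named genes with the largest difference in each direction (mean of at least 100), separated list members, and the 3 list members with the highest mean, of which those the results turn on are printed, and some genes are not reported here. Alternatives changed the pseudocount, filter, scaling, covariates, the empirical Bayes settings and the libraries used.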

Additional observations from a re-analysis of the deposited data

Results flagged for a closer look

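In groups of 5 libraries, a value was picked out where its gap to the nearest other exceeded 0.71 of the whole range (Dixon's 95% limit). Of 94 groups examined, 21 held such a value. About 1 in 20 (4.7) would by chance if values were normally distributed. The limit was applied to counts without logs, whose skew raises that number, and the genes share libraries. On the high side 11 of the 21 were U9-KO female 3: *Fasn* 931443 (others 353643 to 429828), *Acly* 238318, *Elovl6* 71337, *Gys2* 796, *Acss2* 37999, *Mogat2* 371, *Thrsp* 106108, *Scd1* 1353006 (others 402277 to 552069), *Aacs* 17867, *Me1* 127593 (others 27837 to 45173) and the summed blood markers 30107. On the low side U9-KO female 5 stood apart for *Acly* at 45510 (others 4196 to 12899), *Hephl1* at 117 and *Gys2* at 228.

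The ovary markers summed to 138124 in U9-KO female 1 on the high side and to 122383 in WT female 4 on the low side. WT female 4 also had the highest *Elovl5* (6894) and the lowest summed macrophage markers (3432, others 6108 to 6711) of the low side. The oviduct and uterus epithelium markers summed to 9092 in WT female 3, against 1005 to 2988 in the other low females. The summed blood markers were 21666 in U9-KO female 4, and *Pappa2* was 84 in U9-KO female 2 against 43 to 53 in the other high females.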

How the results depend on the processing

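The lipogenesis median kept its direction under each alternative run (1.60 to 2.07 with 1 library left out) and was 1.10 with the oviduct and uterus score as a covariate, an alternative chosen after the data were seen, where 86 genes were higher. With 1 female left out, where non-overlap is easier to meet, the higher set held 111 to 260 genes and the lower set 50 to 203. The lower set held 41 genes with a pseudocount of 10, 98 with a total of at least 10, 102 with no filter, 38 with a mean of at least 100, 160 with the ovary score as a covariate and 226 without the 2 females highest in ovary markers (also chosen after the data were seen). No scaling moved the median of all genes by 0.1. In males, 9 to 593 genes rose and 11 to 541 fell with 1 library left out, 1 rose and 4 fell without the 2 males farthest from the median *Fasn*, and 0 and 0 passed without a trend. Without those 2 males, slopes turned to −0.042 for *Acly*, 0.79 for *Marc1*, 1.59 for *Tnnt2*, 3.464 for *Pappa2*, −0.15 for *Acaca*, −0.24 for *Fads1* and −0.25 for *Pnpla3*. In the remaining males *Fasn* spanned only 203465 to 308595, less than a doubling. *Pappa2* was at 3 to 18 and *Tnnt2* at 6 to 15 there, near the floor, so these slopes are imprecise. With 1 male left out, slopes crossed 0 for *Marc1* (−0.543 to 0.26), *Tnnt2* (−0.697 to 0.084), *Pappa2* (−0.741 to 0.47), *Tcf23* (−0.24 to 0.108) and *Mmp17* (−0.368 to 0.257), each turned without WT male 2, and for *Ptn* (−0.501 to 0.05), turned without WT male 1. The cause was not tested, beyond the fewer samples. Of the other values of single genes, 752 female differences stayed within the spread and 7 moved, and 408 male slopes kept their side of the threshold, 69 lost it and 4 gained it. Between U9-KO and WT females 1 gene passed without a trend, and 0 with the replicate block. The replicate numbers did not pair the females (correlations −0.445 to 0.11).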
